A study of Homo sapiens with 16 samples.

Results

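The step from 1.5 h to 3 h of phorbol ester treatment was examined in K562, a human leukaemia cell line with erythroid and megakaryocytic features, as the comparison of the 2 libraries taken at 3 h with the 2 taken at 1.5 h, 4 of the 16 libraries of a time course. The members were chosen by their time labels alone. The labels give unedited K562 cells in the same medium with 25 nM phorbol 12-myristate 13-acetate (PMA) for all libraries, with 0 h as the untreated start. Among these labels the groups differ only in time. Other time points of the course are 0, 0.5, 6, 24, 48 and 72 h. The labels number the replicates and do not say whether they were separate cultures, so p-values measure the spread between these libraries. In bulk RNA, a change in the mix of cells and a change in RNA per cell cannot be told apart.

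PMA takes the place of the lipid second messenger diacylglycerol and activates protein kinase C, which acts through the RAF, MEK and ERK kinases on transcription. The first genes to respond, the immediate-early genes, need no new protein and encode mostly transcription factors of the FOS, JUN, EGR and KLF families. A later wave follows that depends in part on those factors and includes ERK phosphatases, adaptors and mRNA decay proteins that act back on the pathway, and secreted and adhesion proteins. In K562 prolonged PMA treatment leads to megakaryocyte-like features, and the study's design text gives that state as its aim.

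Short promoter stretches are shown as examples for genes that fell and genes that rose in this step, because they carry letters bound by factors named later in the text; they were picked after the values were seen. The sequences are those of RefSeq on GRCh38.p14, 5′ to 3′ on the strand of the gene, with the matched letters in capitals. Of the falling genes, CHAC1 (chr15:40953236-40953295, plus strand), HERPUD1 (chr16:56931940-56931999, plus strand) and AARS1 (chr16:70289660-70289719, minus strand) hold TGATGCAA, the core letters of the ATF4 element, here on the opposite strand as TTGCATCA.
CHAC1: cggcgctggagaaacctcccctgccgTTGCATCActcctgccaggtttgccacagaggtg
HERPUD1: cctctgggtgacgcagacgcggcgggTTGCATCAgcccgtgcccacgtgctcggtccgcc
AARS1: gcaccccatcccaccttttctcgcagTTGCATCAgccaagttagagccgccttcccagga

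Of the rising genes, CXCL8 (chr4:73740406-73740464, plus strand) holds the AP-1 letters TGACTCA. KLF6 (chr10:3785240-3785300, minus strand) and BTG2 (chr1:203305342-203305402, plus strand) hold the EGR letters GCGGGGGCG. ACTG1 (chr17:81512858-81512919, minus strand) holds a CArG box, the site of serum response factor. The first matched base lies at position −209 from the RefSeq start in CHAC1, −176 in HERPUD1, −187 in AARS1, −137 in CXCL8, −65 in KLF6, −151 in BTG2 and −94 in ACTG1. The same letters also occur in named genes that moved the other way or were not called. The ATF4 letters are at −63 in BCL2A1, which rose, EGR letters at −12 in HERPUD1 and −146 in MNX1, which fell, AP-1 letters at −113 in BBC3, which fell, and NF-kB letters at −67 in TNFAIP3, which fell. EGR1, which was not called, has CArG boxes at −105 and −83.
CXCL8: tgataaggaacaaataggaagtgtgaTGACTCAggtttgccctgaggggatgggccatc
KLF6: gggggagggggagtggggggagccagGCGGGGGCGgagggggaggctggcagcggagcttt
BTG2: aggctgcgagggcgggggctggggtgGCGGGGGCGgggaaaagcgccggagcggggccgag
ACTG1: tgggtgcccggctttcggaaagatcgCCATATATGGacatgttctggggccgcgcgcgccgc

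The 4 libraries held 32630167 to 42909089 estimated reads, and 3 reads, used as the floor of detection, corresponded to 0.0822 to 0.0979 CPM (reads scaled to the TMM-adjusted library size). Mitochondrial genes took 3.19 to 4.06% of reads, and mean fragment lengths were 210 and 214 nt in replicate 1 and 239 and 237 nt in replicate 2. All 10 K562 markers, such as GATA1, TAL1, TFRC and the fetal globin genes, were at 1 CPM or more in all 4 libraries. Of them 4 (KLF1, LMO2, GATA1 and TAL1) were called lower at 3 h (40%, against 12.1% of all genes). The calls of GATA1 and TAL1 were lost when certain single libraries were left out, as given with their list. Of markers of other cells, the summed level of 10 monocyte genes was 144 to 155 CPM at 1.5 h and 179 to 186 at 3 h, that of 10 lymphocyte genes 14.3 to 14.4 and 16.1 to 18.3 CPM, and that of 8 fibroblast genes 9.99 to 10.6 and 10.2 to 12.6 CPM, with LUM at 0 reads. The 7 epithelial genes summed to 622 to 639 CPM at 1.5 h and 1145 to 1405 CPM at 3 h. KRT8, KRT18 and KRT19, keratins of simple epithelia, made up most of it, while KRT5 was at 0 reads. The part of these markers in the results below was not tested.

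Of 17559 genes tested, 4408 (25.1%) were called changed between 1.5 and 3 h by edgeR's quasi-likelihood test at a Benjamini-Hochberg adjusted p under 0.05, with 2280 (13.0%) higher and 2128 (12.1%) lower at 3 h. An unadjusted p under 0.05 was reached by 6105 genes. The groups did not overlap in 10263 genes (58.4%). The rises were the larger changes: among called genes a change of at least 2-fold was found for 999 higher (5.69% of genes tested) and 481 lower genes (2.74%), at least 4-fold for 418 and 55, at least 8-fold for 207 and 14, and at least 16-fold for 111 and 8. The split depended on the scaling, the filter and the libraries fitted. With libraries scaled to total counts in place of TMM factors, the median log2 fold change of all genes moved from 0.034 to −0.15. The calls were then 1572 higher and 3847 lower, so that 29.01% of calls were higher in place of 51.7%. With at least 10 counts required in each of the 4 libraries, 1887 genes were higher and 2225 lower. With only the 4 libraries fitted the counts were 1966 and 2104, and by DESeq2 they were 2246 and 2081. The counts by size of change were not repeated in these settings.

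Each replicate number gave the change separately. Of the 4408 called genes, 4405 had the same sign in both, and in the 9957 better covered genes (mean log2 CPM above 3) the 2 log2 fold changes correlated at r = 0.86, a description across genes that are not independent. The spread between replicates went with the GC content of transcripts, at r = 0.22 for the 1.5 h pair and 0.35 for the 3 h pair, and the fold change of the step itself correlated with GC content at r = 0.13. Its part in single calls was not tested gene by gene; with the GC trend of each library removed, 4350 of the 4408 genes were again called in the same direction.

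**Figure D1:**
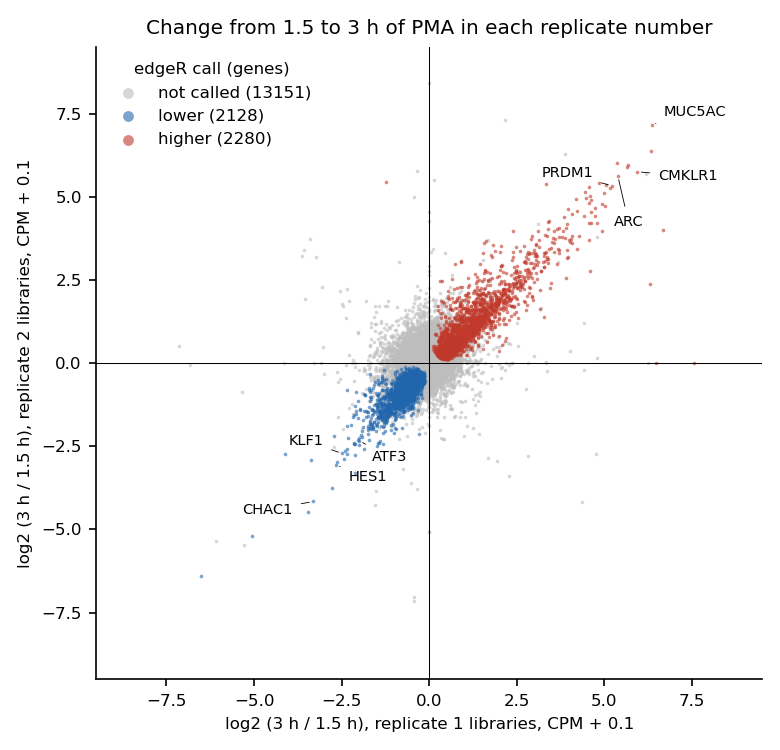
Log2 fold change from 1.5 to 3 h in the replicate 1 libraries (horizontal axis) and in the replicate 2 libraries (vertical axis), both from CPM plus 0.1, for the 17559 tested genes. Points are coloured by the edgeR call (2280 higher, 2128 lower, 13151 not called), and 4405 of the 4408 called genes have the same sign on both axes.

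Most of the largest rises belonged to genes that were close to silent at 1.5 h. The choice favoured such genes, so their low start is not a result. Rises were ranked by log2 fold change, and the floor of 5 CPM applied to the mean of both groups, which the 3 h libraries alone could meet. MUC5AC (chromosome 11, 1157953 to 1201138; gene positions are those of GENCODE on GRCh38), a gel-forming mucin of airway and stomach, went from 0.616 and 0.386 CPM in replicates 1 and 2 at 1.5 h to 58.3 and 69.6 CPM at 3 h (log2 fold change 6.98, SE 0.29, adjusted p 1.30e-09). PRDM1 (chromosome 6, 106086320 to 106109939), which encodes the transcriptional repressor BLIMP1, went from 2.91 and 2.53 to 113 and 105 CPM (log2 fold change 5.32, SE 0.18, adjusted p 3.40e-10). SOX8 (chromosome 16, 981808 to 986979), a transcription factor of the SOXE group, went from 1.09 and 0.684 to 60.8 and 48.5 CPM (log2 fold change 5.93, SE 0.23, adjusted p 7.42e-10). In all 3 genes the 2 groups lay far apart, where the choice of named genes required only that they not overlap, and no library stood apart.

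ARC, an immediate-early gene best known from neurons, had the highest 3 h level among the 12 largest rises, with 21.5 and 12.3 CPM at 1.5 h and 899 and 616 CPM at 3 h (log2 fold change 5.49, SE 0.26, adjusted p 4.34e-09). CMKLR1, the receptor for chemerin, had 5 and 5 reads at 1.5 h and 533 and 407 at 3 h (log2 fold change 6.56, SE 0.21, adjusted p 1.97e-10). LRRC32, the cell-surface protein GARP that holds latent TGF-beta, rose from 0.252 and 0.149 to 17.5 and 14.6 CPM (log2 fold change 6.29). CMKLR1 and LRRC32 were below 1 CPM at 1.5 h, and ARC was not.

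RASL11A, a small GTPase-like protein, rose by 5.35 on the log2 scale, SPSB1, a substrate adaptor of a ubiquitin ligase, by 5.38, SGMS2, a sphingomyelin synthase, by 5.61, and MYO7B, a myosin of the microvillus, by 5.27. The sizes for SGMS2 and MYO7B are uncertain. At 1.5 h SGMS2 had 0.14 and 0.027 TPM and MYO7B 0.12 and 0.053 TPM. Over the alternative settings their fold changes ranged from 5.14 to 6.36 and from 4.82 to 6.11. ADGRB1, an adhesion-type G protein-coupled receptor, had 4 and 3 reads at 1.5 h and 624 and 476 at 3 h (adjusted p 1.55e-09), too few at 1.5 h for a fold change. All 12 genes had adjusted p values of at most 5.78e-08.

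**Figure D2:**
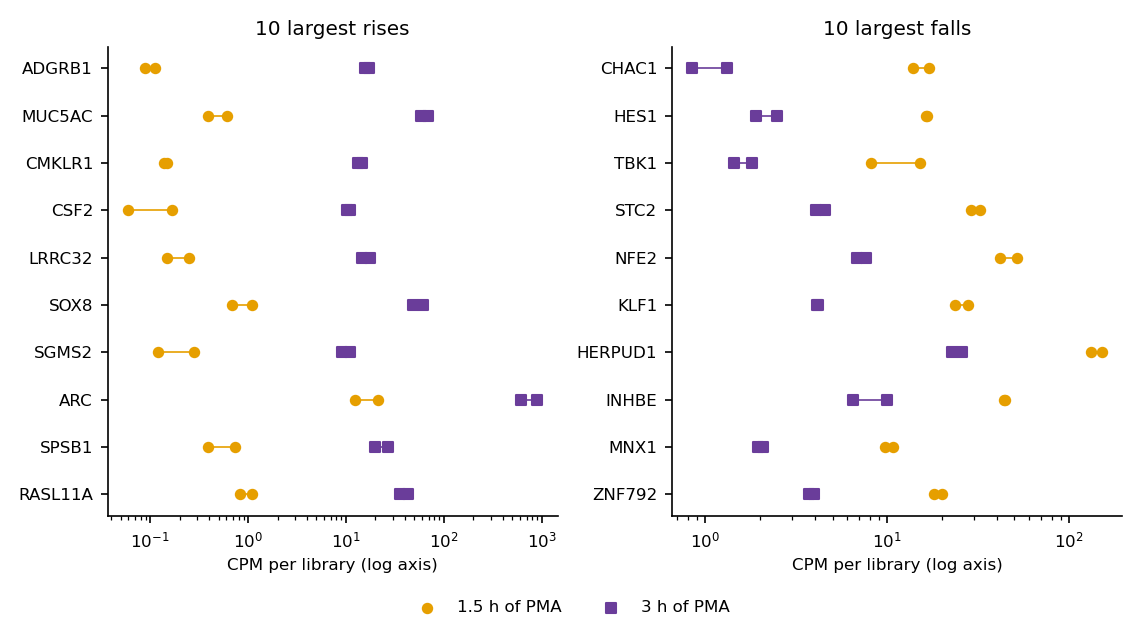
CPM in each library (logarithmic axis) for the 10 largest rises and the 10 largest falls of called protein-coding genes whose 4-library mean reached 5 CPM. Circles are the 1.5 h libraries and squares the 3 h libraries, 2 of each joined by a line. Groups that did not overlap were a condition of the choice, so their separation is not a result. The 1.5 h pair of TBK1 lay at 8.18 and 15.04 CPM.

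The 12 largest falls included 4 genes known from amino acid or endoplasmic reticulum stress and the blood cell factors NFE2 and KLF1, which are described with their lists. CHAC1 (chromosome 15, 40952962 to 40956519), which degrades glutathione, went from 13.9 and 16.9 CPM at 1.5 h to 1.32 and 0.848 CPM at 3 h (log2 fold change −3.81, SE 0.28, adjusted p 2.97e-07). HERPUD1 (chromosome 16, 56932048 to 56944863), part of the degradation machinery of the endoplasmic reticulum, went from 131 and 150.5 to 25.8 and 22.5 CPM (log2 fold change −2.54, SE 0.11, adjusted p 1.32e-09). STC2, a secreted stanniocalcin, fell from 28.7 and 32.2 to 4.55 and 4.04 CPM, and INHBE, an activin subunit, from 43.8 and 44.2 to 9.98 and 6.46 CPM. Groups that did not overlap were a condition here too, and the 1.5 h pair and the 3 h pair were far apart in each of these 4 genes.

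HES1, the repressor that Notch signalling induces, fell from 16.2 and 16.5 to 2.47 and 1.89 CPM (log2 fold change −2.90, SE 0.18, adjusted p 5.06e-08). MNX1, a homeobox factor, fell by 2.34 on the log2 scale, and the kinase PDIK1L by 2.23. TBK1, a kinase of innate immune signalling, was named by the same rule but is less certain: its 1.5 h libraries held 8.18 and 15.04 CPM, its log2 fold change was −2.83 (SE 0.44), and it was −1.01 when counts were rebuilt from TPM and gene length. The transcripts that carried its reads also differed between the groups, with the 3022 nt transcript ENST00000331710 at 3.42 and 6.63 TPM at 1.5 h and 0.312 and 0 TPM at 3 h, and the 513 nt transcript ENST00000540417 at 0 and 0.534 TPM at 1.5 h and 2.01 and 3.99 TPM at 3 h.

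In absolute CPM the largest gains among called protein-coding genes whose groups did not overlap were those of genes that were already abundant. A ranking by the difference in CPM favours such genes, so their high start is not a result. KLF6, a Krüppel-like transcription factor, went from 542 and 516 CPM to 2249.6 and 2080.3 CPM (log2 fold change 2.03, SE 0.10, adjusted p 4.07e-09). HSPA8, the constitutive cytosolic chaperone, went from 1548 and 1763 to 3526 and 3588 CPM (log2 fold change 1.104, SE 0.11, adjusted p 7.39e-06), MCL1, an anti-apoptotic protein, from 1652 and 1583 to 3532 and 2947 CPM, and ACTG1, cytoplasmic gamma-actin, from 1552 and 1522 to 3576 and 2703 CPM. Among the same genes the largest losses in CPM were those of ATF3, KLF10, the alanyl-tRNA synthetase gene AARS1 and the phosphatase gene NUDT4, which overlaps UBE2N on the opposite strand, so that its reads may be shared. AARS1 went from 669 and 673 to 541 and 444 CPM (log2 fold change −0.44, SE 0.10, adjusted p 0.00522) and was no longer called without 3 h replicate 2 (adjusted p 0.0557), and NUDT4 (−0.58) was not called without the replicate 2 library of either time (adjusted p up to 0.0693).

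**Figure D3:**
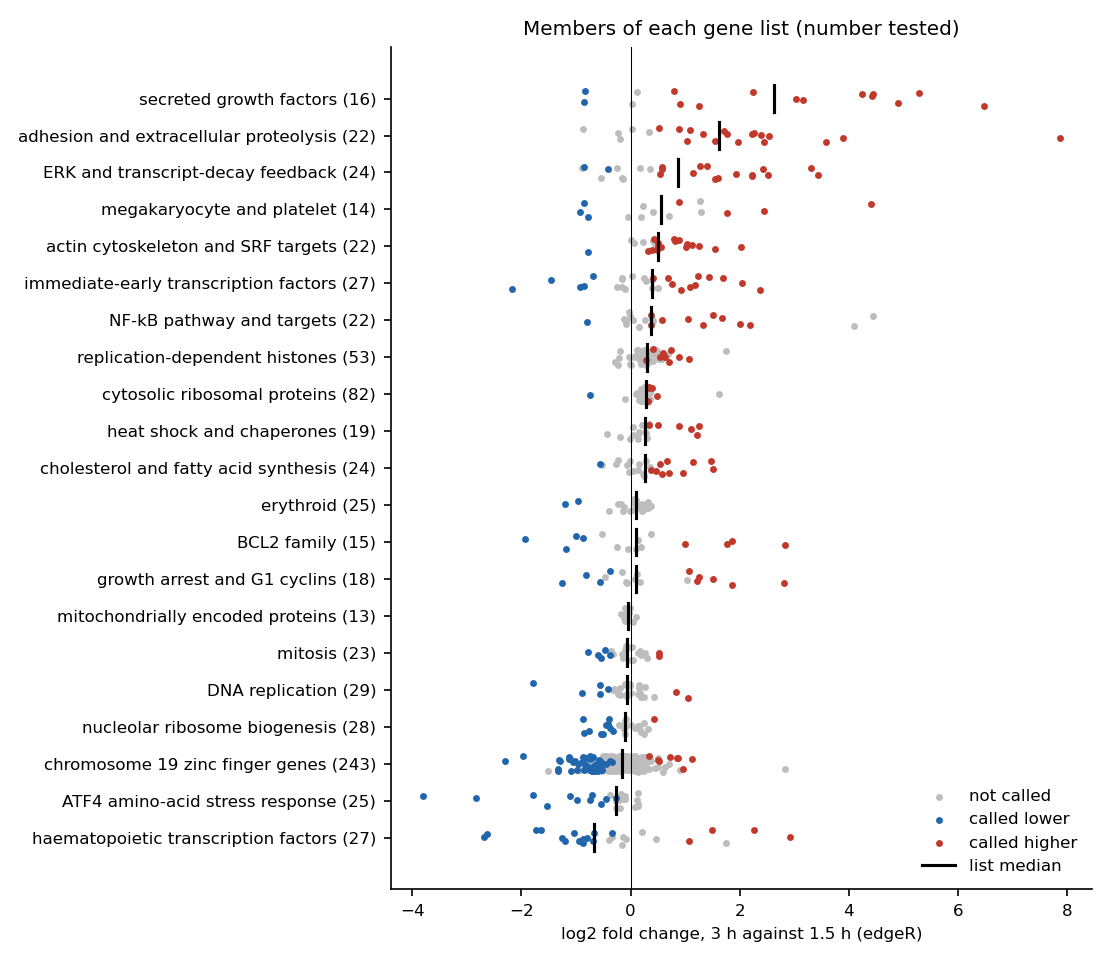
Log2 fold change from 1.5 to 3 h (edgeR) of each tested member of 21 gene lists, with the number tested in brackets. Red points are called higher, blue points called lower and grey points not called; black bars are list medians, from −0.68 for haematopoietic transcription factors to 2.63 for secreted growth factors. The rightmost point, MMP10 among the adhesion genes, is a fitted value of a gene with 0 reads at 1.5 h.

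Secreted growth factors and cytokines made up the list with the highest median. Of 16 tested members 12 were called higher (75%) and 2 lower (12.5%), against 13.0% and 12.1% of all genes, and the median log2 fold change was 2.63, against 0.034 for all genes. CSF2, the granulocyte and macrophage colony-stimulating factor, had 6 and 2 reads at 1.5 h and 401 and 311 at 3 h (adjusted p 1.63e-09). PDGFA, a platelet-derived growth factor chain, went from 15.1 and 12.4 CPM to 323 and 269 CPM (log2 fold change 4.43, SE 0.14, adjusted p 1.97e-10), and its relative PDGFB from 0.532 and 0.327 to 9.43 and 6.95 CPM. IL11, an interleukin that acts on megakaryocyte progenitors, went from 3.45 and 3.89 to 87.05 and 73.2 CPM (log2 fold change 4.45, SE 0.19, adjusted p 1.41e-09).

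CSF1, the macrophage colony-stimulating factor, rose from 10.1 and 9.096 to 96.1 and 75.6 CPM, and AREG, a ligand of the EGF receptor, from 15.2 and 15.7 to 130.1 and 122 CPM. LIF, INHBA (the activin A subunit) and HBEGF rose by 4.90, 5.27 and 2.24 on the log2 scale, and TGFB1 by 1.26. The sizes for LIF and INHBA are uncertain. At 1.5 h LIF had 0.091 and 0.022 TPM and INHBA 0.071 and 0.021 TPM. Over the alternative settings their fold changes ranged from 4.28 to 6.13 and from 4.70 to 6.32. GDF15, the most abundant of them, rose from 280.5 and 284 to 536 and 445 CPM. The exceptions were VEGFA, which induces vessel growth and fell from 386 and 385 to 229 and 196 CPM (log2 fold change −0.86, SE 0.11, adjusted p 5.22e-05), and FGF2, which fell from 41.99 and 44.9 to 25.9 and 22.7 CPM and overlaps the antisense gene NUDT6. EREG and NRG1 were not called (0.035 and 0.12), and TGFA, BTC, VEGFC and OSM had at most 7 reads in any of the 4 libraries and were not tested.

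Adhesion receptors and the plasminogen system, which dissolves matrix and fibrin, rose in most members: 17 of 22 tested genes were called higher (77.3%, against 13.0% of all genes) and 0 lower by edgeR, with a median of 1.63. No member was lower at an unadjusted p under 0.05 or by DESeq2, and 1 was lower without 3 h replicate 1, under total-count scaling, or with GC trends removed. CD44, the hyaluronan receptor, went from 19.7 and 17.5 CPM at 1.5 h to 258 and 292 CPM at 3 h (log2 fold change 3.88, SE 0.12, adjusted p 1.97e-10). PLAU, the urokinase plasminogen activator, rose from 32.97 and 26.2 to 108 and 85.1 CPM, and its receptor PLAUR from 28.3 and 25.5 to 116 and 94.1 CPM, so that enzyme and receptor were higher together.

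TIMP1, the inhibitor of matrix metalloproteases, had 186 and 179 CPM at 1.5 h and 1101 and 1013 CPM at 3 h (log2 fold change 2.54, SE 0.21, adjusted p 1.05e-06). MMP10 had 0 reads at 1.5 h and 34 and 24 reads at 3 h, at least 9.90-fold higher against the floor of 3 reads per library (adjusted p 2.62e-05). Of the integrins, ITGAV rose by 1.33 and ITGB3 by 1.77, while ITGA5 was not called (99.9 and 100.4 against 94.9 and 75.9 CPM). The list's adhesion genes moved in the same direction as the simple-epithelial keratins KRT8 (269 and 267 to 671 and 534 CPM), KRT18 (248 and 257 to 514 and 422 CPM) and KRT19 (52.5 and 54.4 to 142 and 115 CPM), and the part of epithelial markers in these rises was not tested.

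Negative regulators of ERK signalling and of mRNA stability formed the next group. Of 24 tested genes 15 were called higher (62.5%, against 13.0% of all genes) and 2 lower (8.33%, against 12.1%), with a median of 0.86. The count of lower genes was 4 with libraries scaled to total counts and 4 with GC trends removed. PHLDA1, a pleckstrin-homology protein, went from 95.5 and 79.2 CPM to 1014 and 862 CPM (log2 fold change 3.42, SE 0.12, adjusted p 4.93e-10). DUSP5, a nuclear ERK phosphatase, went from 28.6 and 22.1 to 283 and 221 CPM (log2 fold change 3.31, SE 0.14, adjusted p 1.74e-09), and DUSP1 from 122 and 111 to 354 and 257 CPM.

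SPRY4, a Sprouty protein that acts upstream of RAF, rose from 233 and 215 to 937 and 778 CPM (log2 fold change 1.94, SE 0.11, adjusted p 3.19e-08). ERRFI1, an inhibitor of the EGF receptor, rose by 2.43, the EGR corepressors NAB1 and NAB2 by 2.22 and 1.54, the pseudokinase TRIB1 by 1.60, and ZFP36L1, which promotes decay of AU-rich transcripts, by 2.52. Its relatives ZFP36 (−0.53) and ZFP36L2 (−0.14) were not called. The members that fell were the phosphatases DUSP7 (−0.86) and DUSP16 (−0.41), and DUSP16 lost its call without the replicate 2 library of either time (adjusted p up to 0.0740) and with counts rebuilt from TPM (0.118).

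The immediate-early transcription factors, by contrast with the 2 lists above, split. Of 27 tested, 11 were called higher (40.7%, against 13.0% of all genes) and 5 lower (18.5%, against 12.1%). The median was 0.39, and it was 0.19 with libraries scaled to total counts and 0.11 with GC trends removed. FOSL2, an AP-1 subunit, went from 34.2 and 30.5 to 183 and 153 CPM (log2 fold change 2.37, SE 0.11, adjusted p 2.15e-09), EGR3 from 187 and 189 to 415 and 386 CPM, EGR2 from 75.5 and 81.1 to 131 and 122 CPM, and the orphan receptor NR4A1 from 359 and 304 to 723 and 534 CPM. MYC rose by 0.76 but was not called without the replicate 1 library of either time (adjusted p up to 0.0941).

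ATF3, a repressor induced by stress and mitogens, went from 279 and 305 CPM to 69.4 and 60.7 CPM (log2 fold change −2.17, SE 0.13, adjusted p 2.86e-08), and KLF10 from 327 and 316 to 121 and 113 CPM (log2 fold change −1.45, SE 0.09, adjusted p 7.77e-08). FOS fell from 352 and 359.5 to 251 and 191 CPM, and NR4A3 by 0.85 on the log2 scale, a call lost without either replicate 1 library (adjusted p up to 0.101). EGR1, the most abundant of them, was not called, with 3218 and 3632 CPM at 1.5 h and 3011 and 2746 CPM at 3 h (adjusted p 0.38), and neither were JUN (−0.098), JUNB (0.018) and FOSB (0.39). IER3 had 0 reads on the primary assembly and was not tested here.

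Among 22 tested NF-kB subunits, inhibitors and targets, 9 were called higher (40.9%, against 13.0% of all genes) and 1 lower (4.55%, against 12.1%). The median was 0.38, and with libraries scaled to total counts it was 0.19 with 2 lower, as were 2 with GC trends removed. CXCL8, a neutrophil chemokine, went from 372 and 403 to 1137 and 1075 CPM (log2 fold change 1.51, SE 0.13, adjusted p 1.37e-06), and CXCL3 from 114 and 118 to 485 and 440.2 CPM. The subunit RELB rose by 1.05, and by 0.53 when counts were rebuilt from TPM and gene length. NFKB1 was called at 0.58, but in that setting it had 0.23 and was not called (adjusted p 0.261), and its TPM were 15.5 and 12.8 at 1.5 h and 15.8 and 12.8 at 3 h. The inhibitor NFKBIA had 27.6 and 29.2 CPM and 31.6 and 27.3 CPM and was not called. The ubiquitin-editing inhibitor TNFAIP3 went the other way, from 79.1 and 71.4 to 45.5 and 41.5 CPM (log2 fold change −0.79, SE 0.10, adjusted p 3.47e-05). CCL2, a monocyte chemokine, rose by 2.18 from 0.476 and 0.297 to 2.06 and 1.47 CPM.

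Cytoskeletal genes rose by smaller factors on high levels. Of 22 tested actin-related genes and serum response factor targets, 16 were called higher (72.7%, against 13.0% of all genes) and 1 lower (4.55%, against 12.1%), with a median of 0.50, or 0.30 with libraries scaled to total counts. ZYX, a focal adhesion protein whose gene overlaps EPHA1 on the opposite strand, went from 172 and 159.6 to 756 and 596 CPM (log2 fold change 2.03, SE 0.18, adjusted p 1.52e-06). PXN went from 108 and 101 to 330.1 and 284 CPM. FLNA, an actin crosslinker, went from 1329 and 1231 to 2999 and 2165 CPM, VIM, an intermediate filament protein, from 1217 and 1204 to 2882 and 2367 CPM, and MYH9, nonmuscle myosin, from 289 and 282 to 565 and 444 CPM. ACTB went from 2651 and 2629.7 to 4368 and 3433 CPM (log2 fold change 0.56, SE 0.12, adjusted p 0.00328). CCN1, a matricellular target of the same pathway, fell by 0.78, and CCN2 had 0 reads in all 4 libraries.

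Sterol synthesis genes were higher in part. Of 24 tested genes of cholesterol and fatty acid synthesis, 10 were called higher (41.7%, against 13.0% of all genes) and 1 lower (4.17%, against 12.1%), and 6 were higher and 4 lower without 3 h replicate 1. The median was 0.26. It was 0.064 with libraries scaled to total counts, where 4 were lower, and 0.14 with GC trends removed, where 5 were lower. INSIG1, which holds the sterol sensor in the endoplasmic reticulum, went from 752 and 678 to 2219.8 and 1843 CPM (log2 fold change 1.51, SE 0.11, adjusted p 3.33e-07). The synthesis enzymes HMGCS1 and SQLE rose by 1.48 and 1.14. Of the fatty acid genes, FASN (0.29), ACACA (−0.22) and SCD (0.049) were not called, and MVK, which overlaps MMAB, fell by 0.57. Of 19 tested chaperones 6 were called higher (31.6%, against 13.0% of all genes) and 0 lower by edgeR, with a median of 0.27. At an unadjusted p under 0.05 1 was lower, by DESeq2 0. The median was 0.078 with libraries scaled to total counts, where 2 were lower, and 10 were higher and 2 lower with GC trends removed. Beside HSPA8 these included HSPH1 (1.26), its cofactors BAG3 (1.22) and DNAJA1 (0.90), and HSP90AB1, which went from 2732 and 2793 to 4299.8 and 3551 CPM, whereas HSPA5 of the endoplasmic reticulum was not called (−0.19).

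Transcription factors of blood cell lineages fell more often than they rose. Of 27 tested, 15 were called lower (55.6%) and 4 higher (14.8%), against 12.1% and 13.0% of all genes, with a median of −0.68. KLF1 (chromosome 19, 12884422 to 12887199), the erythroid Krüppel-like factor, went from 23.6 and 27.6 CPM to 4.17 and 4.11 CPM (log2 fold change −2.63, SE 0.17, adjusted p 8.49e-08). NFE2 (chromosome 12, 54292111 to 54301121), a subunit of a factor used by both erythroid cells and platelet-forming megakaryocytes, went from 41.7 and 51.4 to 7.62 and 6.82 CPM (log2 fold change −2.69, SE 0.15, adjusted p 2.03e-08). MYB, a progenitor factor, went from 187 and 211 to 60.7 and 58.9 CPM (log2 fold change −1.73, SE 0.09, adjusted p 8.38e-09). No 3 h library reached the level of a 1.5 h library in these 3 genes, which for KLF1 and NFE2 was a condition of their place among the largest falls.

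RUNX1 fell from 239 and 254 to 123 and 116 CPM (−1.04, or −0.69 with counts rebuilt from TPM), IKZF1 from 91.01 and 99.8 to 42.4 and 40.7 CPM, and the TAL1-complex members LMO2, LYL1 and LDB1 by 1.25, 0.89 and 0.69 on the log2 scale. MEIS1 and HHEX, factors of progenitors, fell by 0.94 and 0.87. GATA1, the main erythroid and megakaryocyte GATA factor, fell from 85.4 and 89.7 to 63.3 and 46.2 CPM (log2 fold change −0.68, SE 0.16, adjusted p 0.0053), with an adjusted p of 0.0625 without 3 h replicate 2. TAL1 fell by 0.33 and lost its call when any of 3 libraries was left out (either 1.5 h library or 3 h replicate 2, adjusted p up to 0.117) and with counts rebuilt from TPM (adjusted p 0.0829).

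GATA2 (chromosome 3, 128479427 to 128493185), the GATA factor of progenitors and early megakaryocytes, went against the list, from 146 and 142 CPM to 749 and 638 CPM (log2 fold change 2.27, SE 0.16, adjusted p 2.41e-07). In TPM, which compares levels per transcript length, the ranges of GATA1 and GATA2 overlapped at 1.5 h, with 98.0 and 95.2 TPM for GATA1 and 100.3 and 87.1 TPM for GATA2. At 3 h they were at 58.0 and 45.6 TPM and at 395 and 359.7 TPM. Along with GATA2 rose CBFB, the non-DNA-binding partner of RUNX proteins, from 76.7 and 84.5 to 182 and 156 CPM, and RUNX2, from 11.5 and 10.998 to 30.8 and 32.4 CPM. ERG, an ETS factor of megakaryocytes, was called on 2 and 2 reads at 1.5 h and 14 and 17 at 3 h. FLI1, a relative of ERG, had at most 5 reads in any of the 4 libraries.

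**Figure D4:**
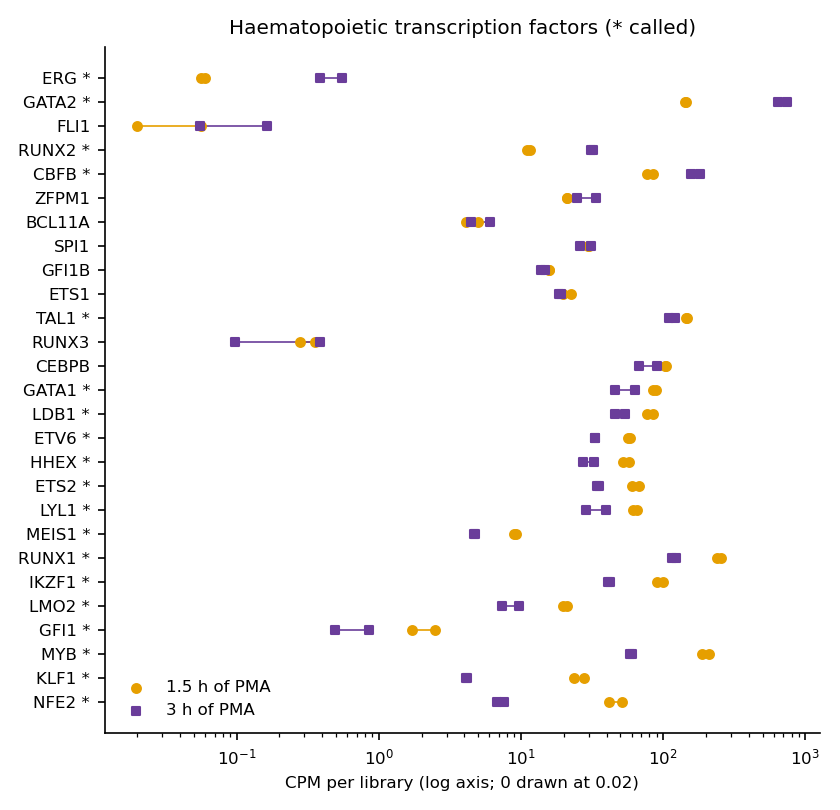
CPM in each library (logarithmic axis, 0 drawn at 0.02) of the 27 haematopoietic transcription factors, ordered by log2 fold change, with circles for 1.5 h, squares for 3 h and an asterisk for called genes. GATA2 stands at 749 and 638 CPM at 3 h, above its 1.5 h libraries, while the 15 genes called lower lie left of theirs.

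Of 25 tested erythroid genes 0 were called higher and 2 lower (8%, against 12.1% of all genes) by edgeR. At an unadjusted p under 0.05 the counts were 0 and 4, and by DESeq2 0 and 2. The lower count was 4 with libraries scaled to total counts and 6 with GC trends removed. The median was 0.10, and it was −0.096 with libraries scaled to total counts and −0.0083 without 3 h replicate 1. HEMGN, an erythroid nuclear protein, fell from 36.4 and 48.9 to 17.7 and 19.4 CPM (log2 fold change −1.20, SE 0.16, adjusted p 9.61e-05), and EPOR, the erythropoietin receptor, whose locus overlaps RGL3, from 4.34 and 4.34 to 2.47 and 1.96 CPM (log2 fold change −0.97, SE 0.21, adjusted p 0.00412). Globin transcripts were not called, with HBG2 at 675 and 603 CPM and 973 and 647 CPM. HBG2 shares near-identical sequence with HBG1 and overlaps HBE1, so reads may be split among them.

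Of 14 tested megakaryocyte and platelet genes 4 were called higher (28.6%, against 13.0% of all genes) and 3 lower (21.4%, against 12.1%), with a median of 0.57, or 0.37 with libraries scaled to total counts. ITGB3, the beta chain of the fibrinogen receptor, went from 2.02 and 1.96 to 7.43 and 6.16 CPM (log2 fold change 1.77, SE 0.15, adjusted p 9.32e-07), and CD9, a tetraspanin, from 0.476 and 0.535 to 3.13 and 2.38 CPM. ITGA2B, the alpha chain that pairs with ITGB3, was not called (0.19, and −0.010 with libraries scaled to total counts). VWF was called on 1 and 1 reads at 1.5 h and 23 and 23 at 3 h, and THBS1 rose from 4.31 and 3.09 to 8.28 and 5.45 CPM, a call lost when 1.5 h replicate 2 or 3 h replicate 1 was left out (adjusted p up to 0.0574).

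F2RL3, a thrombin receptor, fell from 12.2 and 14.8 to 7.402 and 7.47 CPM, and TUBB1, the platelet tubulin, whose locus overlaps ATP5F1E, from 2.27 and 2.62 to 1.12 and 1.47 CPM. GP1BA, GP9, PF4, SELP, CLEC1B and TREML1 had at most 2 reads in any of the 4 libraries and were not tested.

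The ATF4 program of the amino acid response, whose letters mark the CHAC1 and AARS1 promoters shown above, had 11 of 25 tested members lower (44.0%, against 12.1% of all genes) and 0 higher by edgeR, with a median of −0.26. None was higher at an unadjusted p under 0.05 or by DESeq2. With libraries scaled to total counts 17 were lower and the median was −0.46. Beside CHAC1 and STC2, DDIT4, an inhibitor of the mTORC1 kinase, went from 185 and 189 to 61.4 and 47.2 CPM (log2 fold change −1.78, SE 0.13, adjusted p 2.36e-07), and SESN2, which senses leucine, from 304 and 312 to 162 and 125 CPM. ATF4 itself fell from 286 and 319 to 217 and 201 CPM (log2 fold change −0.53, SE 0.10, adjusted p 0.00122), its partner DDIT3 from 171 and 164 to 90.6 and 79.2 CPM and its inhibitor TRIB3 from 370.4 and 365 to 261 and 192 CPM.

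Other targets of the same program did not pass the test. ASNS, asparagine synthetase, had 510.02 and 512 CPM at 1.5 h and 624 and 497 CPM at 3 h (0.13), and SLC7A11, the cystine carrier, 452 and 428 and 503 and 448 CPM (0.11). WARS1, the most abundant of the list, which overlaps WDR25, had a log2 fold change of 0.14, which was −0.048 with libraries scaled to total counts.

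BCL2-family genes moved in both directions, with 4 of 15 tested higher and 4 lower (26.7% each, against 13.0% and 12.1% of all genes). Among the guardians of the mitochondrial membrane, BCL2L1, which encodes BCL-XL, went from 143 and 147 CPM to 42.5 and 33.2 CPM (log2 fold change −1.93, SE 0.12, adjusted p 4.15e-08), while MCL1 rose as given above (log2 fold change 1.00, SE 0.13, adjusted p 7.68e-05). Of the death-promoting members, the effector BAK1 rose from 15.9 and 16.1 to 65.1 and 50.4 CPM, and the BH3-only genes BBC3 and BCL2L11 fell by 1.19 and 1.01. BCL2A1 was called higher on 3 and 1 reads at 1.5 h and 15 and 14 at 3 h. The list's median was 0.096, and it was −0.10 with libraries scaled to total counts, −0.088 with GC trends removed and −0.17 without 3 h replicate 1.

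Of 18 tested growth arrest genes and G1 cyclins, 6 were called higher (33.3%, against 13.0% of all genes) and 4 lower (22.2%, against 12.1%), and the 4 became 2 without the replicate 2 library of either time. CDKN1A, the CDK inhibitor that p53 and ERK signalling induce, went from 77.1 and 65.4 CPM to 579 and 424 CPM (log2 fold change 2.81, SE 0.15, adjusted p 1.21e-08). GADD45A, a stress-induced regulator of MAP kinase signalling, went from 173 and 172 to 663 and 588 CPM, and BTG2, an antiproliferative protein, from 323 and 323 to 953 and 899 CPM (log2 fold change 1.52, SE 0.10, adjusted p 6.38e-08). Other CDK inhibitors fell, CDKN2C from 33.7 and 35.5 to 16.5 and 12.3 CPM and CDKN1B from 31.1 and 32.99 to 20.3 and 15.9 CPM. CCND1 rose by 1.25. The median was 0.094, and it was −0.10 with libraries scaled to total counts, 0.054 with GC trends removed and −0.050 without 3 h replicate 1.

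Of 29 replication genes 2 were higher (6.90%, against 13.0% of all genes) and 5 lower (17.2%, against 12.1%). The lower count was 3 without 1.5 h replicate 2 and 14 under total-count scaling, and with GC trends removed 5 were higher and 9 lower. E2F2 fell from 58.7 and 62.03 to 18.5 and 16.5 CPM (log2 fold change −1.79, SE 0.10, adjusted p 2.69e-08) and the origin protein ORC1 from 110.3 and 118 to 65.1 and 57.8 CPM, whereas RRM2, a ribonucleotide reductase subunit whose locus overlaps another gene, rose from 262 and 276 to 557 and 559 CPM (log2 fold change 1.05, SE 0.09, adjusted p 1.38e-06) and GINS3 by 0.84, or 0.46 with counts rebuilt from TPM. MCM7, a subunit of the replicative helicase that overlaps AP4M1, was not called (0.27). Of 23 mitotic genes 2 were higher (8.70%) and 5 lower (21.7%). The lower count was 9 with libraries scaled to total counts, 8 with GC trends removed, 2 without 1.5 h replicate 2 and 3 without any 1 of the other libraries, and 4 were higher without 3 h replicate 2. MKI67, the proliferation antigen, rose from 509 and 564 to 722 and 824 CPM, AURKA from 171 and 174 to 261 and 234 CPM, and TOP2A, a topoisomerase, was not called (−0.078). TTK fell by 0.77, but its call was lost without any 1 of the 4 libraries (adjusted p up to 0.139).

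Of 28 nucleolar genes of ribosome biogenesis 10 were lower (35.7%, against 12.1% of all genes) and 1 higher (3.57%, against 13.0%). The lower count was 6 without 1.5 h replicate 2 and 16 under total-count scaling, where 0 were higher, and the higher count was 2 without 3 h replicate 2 and 4 with GC trends removed. POLR1B, a subunit of RNA polymerase I, fell from 32.8 and 34.3 to 19.5 and 17.1 CPM (log2 fold change −0.87, SE 0.11, adjusted p 4.88e-05), and WDR3 by 0.85, while NPM1 was not called (0.25). NOP2, the member called higher (0.43), lost its call without 3 of the 4 libraries (adjusted p up to 0.188), with total-count scaling (adjusted p 0.230) and with counts rebuilt from TPM (adjusted p 0.323), and its locus overlaps another gene. Of 82 cytosolic ribosomal protein genes 5 were higher (6.10%, against 13.0% of all genes) and 1, RPL22L1, lower (−0.73). RPL4, the most abundant, which overlaps ZWILCH, was not called (0.28). The count of 5 varied with the setting: it was 0 with libraries scaled to total counts, 22 with GC trends removed and 13 by DESeq2. Leaving out either replicate 1 library gave 0, and leaving out replicate 2 gave 1 for the 1.5 h library and 24 for the 3 h library.

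Among 243 zinc finger genes of chromosome 19, many of them repressors of the KRAB class, 48 were lower (19.8%, against 12.1% of all genes) and 8 higher (3.29%, against 13.0%), with a median of −0.16. The lower count was 29 without 1.5 h replicate 2 and 85 under total-count scaling. ZNF792 fell from 17.96 and 20.03 to 3.98 and 3.72 CPM (log2 fold change −2.30, SE 0.11, adjusted p 4.07e-09), ZNF653, whose locus overlaps another gene, rose by 1.13, and ZNF699 rose from 8.57 and 9.84 to 18.7 and 16.96 CPM (log2 fold change 0.95, SE 0.13, adjusted p 9.77e-05). Of 53 replication-dependent histone genes 9 were higher (17.0%, near the 13.0% of all genes) and 0 lower by edgeR. The counts were 14 and 0 by DESeq2, 19 and 0 at an unadjusted p under 0.05, and 3 and 4 with libraries scaled to total counts, and 1 was lower with GC trends removed. Leaving out 1 library gave 2 or 3 higher histone genes, except 11 without 3 h replicate 2. H3C12, which overlaps H2AC17, rose by 1.06, and H2BC8 rose from 96.4 and 98.95 to 183 and 145 CPM. Of the 13 mitochondrial protein genes 0 were called by edgeR, against 25.1% of all genes. DESeq2 called 0, and 0 reached an unadjusted p under 0.05. The list's median was −0.055, with 0.14 within replicate 1 and −0.27 within replicate 2. MT-CO1, the most abundant, was at 0.099.

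The course of the named genes at other times set the step in place; comparisons that share the 1.5 h or 3 h libraries with it are given per gene only, since they are not independent of it. ATF3, KLF10, KLF11 and YAP1 were named because they rose from 0.5 to 1.5 h, as 4.11% of genes did, and fell from 1.5 to 3 h. KLF10 had a mean of 36.2 ± 3.11 CPM at 0.5 h (SD, n = 2), 321 ± 7.84 at 1.5 h, 117 ± 5.64 at 3 h and 86.99 ± 5.68 at 6 h. YAP1, the Hippo pathway coactivator, had 6.97 ± 0.568, 19.6 ± 4.89, 5.24 ± 0.242 and 1.92 ± 0.00643 CPM at these times. In both genes the 1.5 h libraries were the highest of these 4 times. The choice required a rise to 1.5 h and a fall to 3 h, so a peak over 0.5 and 3 h is not a result.

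ARC, CMKLR1, LRRC32 and SOX8 rose to 3 h and were named because they were lower again at 6 h, as 22.1% of genes were. ARC went from 757 ± 200.2 CPM at 3 h to 162 ± 5.63 CPM at 6 h (log2 fold change −2.22), SOX8 from 54.7 ± 8.68 to 14.1 ± 0.649 CPM (−1.96) and LRRC32 from 16.1 ± 2.097 to 2.26 ± 0.359 CPM (−2.82). INSIG1 had the same shape on a higher level, with 373 ± 25.4 CPM at 6 h against 2031 ± 267 at 3 h. Other rises continued: CD44 reached 1613 ± 85.6 CPM at 6 h, TIMP1 2978 ± 405 CPM and CCL2 110.1 ± 6.2997 CPM. PRDM1 stood at 88.1 ± 4.59 CPM at 6 h, which was not called different from 3 h (adjusted p 0.102).

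The falls of KLF1, NFE2, MYB and BCL2L1 went on, with all 4 lower at 6 h than at 3 h (edgeR, largest adjusted p 0.00911). At 6 h the mean was 1.37 ± 0.0104 CPM for KLF1 and 1.86 ± 0.22 CPM for NFE2, after 52.6 ± 12.5 and 88.97 ± 14.3 CPM before treatment. By 72 h NFE2 had 53.2 ± 3.898 CPM and KLF1 2.87 ± 0.0392 CPM. BCL2L1 stood at 28.2 ± 0.872 CPM at 6 h, against 247 ± 3.39 CPM at 72 h. For MYB these means were 26.04 ± 1.03 and 58.1 ± 0.124 CPM.

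**Figure D5:**
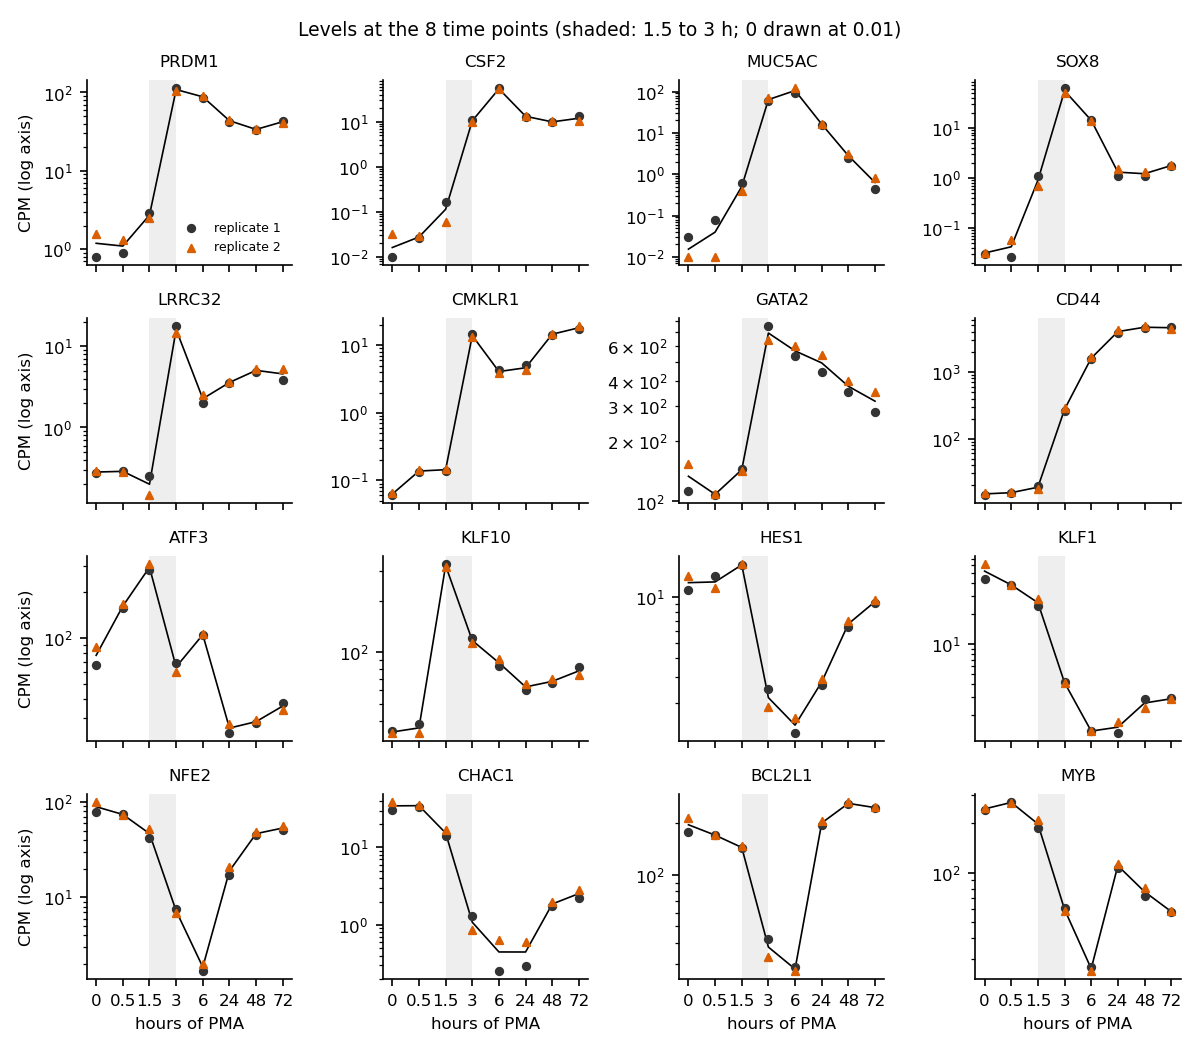
CPM (logarithmic axes, 0 drawn at 0.01) of 16 genes at the 8 time points, evenly spaced, with circles for replicate 1, triangles for replicate 2, a line through the means and the step from 1.5 to 3 h shaded. The upper 8 genes rise within the shaded step (CD44 from 19.7 and 17.5 to 258 and 292 CPM), and the lower 8 fall in it (MYB from 187 and 211 to 60.7 and 58.9 CPM).

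The comparison of 6 h with 0 h shares no library with the step. Of the 2280 genes called higher in the step, 1980 (86.8%) were called higher at 6 h than at 0 h, where 27.8% of all genes were, and 29 (1.27%) were called lower. Of the 2128 called lower, 1583 (74.4%) were lower at 6 h than at 0 h, where 29.4% of all genes were, and 140 (6.58%) were higher. By 0.5 h, 11 of the 2280 (0.482%) and 4 of the 2128 (0.188%) were called higher than at 0 h, where 29 of all genes (0.165%) were. Between 24 and 72 h the genes higher in the step were called in both directions, 386 (16.9%) higher and 386 (16.9%) lower at 72 h, where 13.9% and 12.4% of all genes were.

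Called protein-coding genes were then described by features that the labels did not use. Median GC content of transcripts was 52.1% for the 2083 higher genes, 48.0% for the 1980 lower genes and 49.6% for all 15426 tested. The genes that fell at least 2-fold were short, with a median span of 18.4 kb and 4 exons, against 32.2 kb and 7 exons for all tested and 28.3 kb and 6 exons for genes that rose at least 2-fold. Median transcript length was 2757 nt in the former and 2404 nt in all tested.

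Promoters, from 250 bases before to 50 after the start, were found in the RefSeq table for 1653 higher genes (82.2%), 1626 lower genes (84.6%) and 12134 of all tested (81.4%), outside chromosome 8 and the mitochondrial genome. The letters GCGTGGGCG or GCGGGGGCG of EGR factors, on either strand, were in 13.8% of promoters of higher genes, 7.87% of lower genes and 8.74% of all tested, against 5.70% of the 27305 promoters in the table. These letters are rich in G and C, as were the transcripts of higher genes, and the part of base composition was not tested. The AP-1 letters TGACTCA or TGAGTCA were in 5.57% of higher, 2.40% of lower and 3.40% of all tested promoters (4.92% of the table).

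The ATF4 letters TGATGCAA were in 0.302% of promoters of higher genes, 0.677% of lower genes, 0.577% of all tested and 0.923% of the table, that is in 5 higher and 11 lower genes. The CRE letters TGACGTCA were in 3.45, 2.77 and 3.03% of higher, lower and all tested promoters, the NF-kB letters GGACTTTCC in 0.726, 0.308 and 0.412%, and the CArG box in 1.51, 1.48 and 1.15%. In the table as a whole these 3 motifs had shares of 1.98, 0.374 and 1.29%. A match is a description of letters in the window and not evidence of a bound site.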

How the data were processed

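RNA sequencing libraries of K562 cells at 8 times of PMA treatment were used, 2 per time. Each deposited file lists 177456 transcripts with 2 measures: the authors' estimated counts of reads per transcript, not normalized, and TPM, per the file headers. The submitters' processing notes name Trim Galore 0.4.3, Salmon, HISAT2 2.1.0, SAMtools 1.9, deepTools 3.0.1, R 3.3.1, DESeq2 and the builds hg19 and hg38; which build and strand setting gave the counts is not given in the sources used here.

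Transcripts were matched to 35052 genes of GENCODE release 29 on GRCh38 (94.1% of transcripts); unmatched transcripts held 3.02 to 3.14% of the reads of the 4 libraries. Counts were summed per gene, rounded, and tested with edgeR 4.0.16 in R 4.3.3 (TMM factors, filterByExpr, quasi-likelihood fit of all 16 libraries, prior count 0.125), with Benjamini-Hochberg adjustment over 17559 genes. SE is the unshrunk log2 fold change divided by the root of F. The common biological coefficient of variation was 0.123. The test was checked on simulated counts. The floor covers counting error alone, because PCR copies are not separate molecules. An exact permutation test of 2 against 2 libraries cannot reach 0.05.

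Named genes were, among called protein-coding genes whose 4-library mean reached 5 CPM and whose groups did not overlap, the 12 largest rises and falls, the 4 largest falls after a rise to 1.5 h and rises before a fall to 6 h, the 4 largest CPM gains and losses, and from each list the member with the largest change, the highest mean CPM and up to 2 called against the list. Further list members were named as examples after their values were seen, and some genes that the rule or the lists hold are not reported here. The members and the lists were chosen with earlier results of these data known. Lists were described by counts and medians, with no test. Alternatives were another normalization, filter, gene summary, fit, test and threshold, DESeq2 1.42.0, removal of GC trends, the replicate number as a block, and leaving out each library.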

Additional observations from a re-analysis of the deposited data

Results flagged for a closer look

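The transcript tables list 10429 transcripts outside the gene annotation, many on alternative copies of a chromosome region, and these were left out of the gene counts. In an alternative chosen after seeing the data, 6590 of them were given back to 688 genes by symbol, which regained 1.47 to 1.54% of the reads of the 4 libraries. Of 438 genes with at least 20 added reads, 258 took at least 50% of their reads from such copies. Of these, 78 had not been tested before. Among the 78, 14 were called higher and 4 lower at 3 h, where 13.0% and 12.1% of all genes in the reported test were. The signals below were in reads that the gene counts do not hold. They are from 8 genes called higher at 3 h, with 0 reads on the primary assembly and a mean of at least 5 CPM. Genes called lower were left out by this rule, so the shared direction was set in advance.

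IER3, an immediate-early survival gene, had 147 and 144 CPM at 1.5 h and 278 and 256 CPM at 3 h (log2 fold change 0.88, SE 0.17, edgeR adjusted p 0.00122), after 11.9 CPM at 0 h, and 528 CPM at 6 h. HSPA1A, an inducible heat shock protein, had 139 and 148 CPM at 1.5 h and 333 and 278 CPM at 3 h (log2 fold change 1.09, SE 0.15, edgeR adjusted p 7.92e-05). Its near-identical copy HSPA1B had 222 and 219 CPM and 506 and 382 CPM (log2 fold change 1.01), and reads could be split between the copies. The 3 h libraries lay above the 1.5 h libraries in all 3 genes. SCARF1, a scavenger receptor, rose by 0.99, PLEKHM1, an adaptor of lysosome fusion, by 0.88, the pseudogene HLA-L by 0.74, AGER by 0.54 and the kinase subunit gene CSNK2B by 0.38 on the log2 scale, with a largest edgeR adjusted p of 0.0335 in CSNK2B.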

How the results depend on the processing

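The 4408 calls (2280 higher, 2128 lower) were set against 17 alternatives, of which the addition of unmatched transcripts by symbol was chosen after seeing the data. Scaled to total counts, 3847 genes were lower; with GC trends removed, 3241; at an adjusted p under 0.01, 1374. Tested against a 2-fold change, 589 genes were called, 486 higher and 103 lower. Leaving out 1 library gave 2817 to 3841 calls, 1521 to 2308 higher and 1296 to 1854 lower, with 2817 calls and 1296 lower without 1.5 h replicate 2. Replicate deviations correlated at r = 0.031 between 1.5 and 3 h over all tested genes (−0.085 to 0.17 over all pairs of times). Low-count genes were included, so this cannot show whether the replicate number pairs the samples. Fragment length and the GC trend differed between replicates 1 and 2 in the same direction at both times. With the replicate number as a block 4826 genes were called, and with the block and the GC trend removed 6651, of them 3484 lower. The other alternatives stayed within 1.5 times of each count. In every alternative all genes called both there and in the reported test had the same direction.

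Of 165 named genes, those that changed sign were not called in either fit: with libraries scaled to total counts H1-2 (−0.019), ITGA2B (−0.010), MT-CO1 (−0.099), WARS1 (−0.048) and ZNF121 (−0.13), and, leaving out 1 library, H1-2 (−0.060 without 3 h replicate 1, to 0.39) and MT-CO1 (−0.10 without 3 h replicate 1, to 0.27). The cause was not tested. Genes that lost their call without a library are given beside their values. With 2 libraries per time, a lone library was assumed to vary like the other times. Counts of 3 or fewer reads limit genes such as CSF2, ADGRB1, VWF, ERG, BCL2A1 and MMP10 at 1.5 h.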
